A study of Mus musculus with 16 samples.

Results

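Levels of 9 oligodendrocyte and myelin genes, Mbp, Mog, Mag, Mobp, Cnp, Cldn11, Mal, Olig1 and Sox10, were described in the medial prefrontal cortex (mPFC) of 16 mice. The 9 genes were taken by symbol from the 26625 entries of a gene count table, as a set chosen when earlier results of these data were known. All 9 passed the filter on low counts that left 18826 entries for testing. The mice fell into 4 groups. Ctrl + Saline had 3 mice and Kdm7a-shRNA + Saline had 5, and the groups given morphine, Ctrl + Morphine and Kdm7a-shRNA + Morphine, had 4 each. All were male C57BL/6 mice of 8 to 10 weeks that had received an adeno-associated virus in the mPFC on both sides, and all went through conditioned place preference, in which a chamber is paired with a drug. In the Kdm7a-shRNA groups the virus carried a short hairpin RNA against Kdm7a, a demethylase of histone H3 lysines, and in the Ctrl groups a hairpin with no target. The U6 promoter of the hairpin and the CMV promoter of the EGFP marker are not restricted to a cell type, and which cells took up the virus was not measured here. The Morphine groups received 5 injections of morphine at 10 mg/kg over 10 days of conditioning, the Saline groups received saline, and tissue was taken on day 7 of withdrawal. RNA was read as full-length cDNA on a nanopore sequencer.

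Oligodendrocytes are the cells that wrap axons of the central nervous system in myelin, a stack of compacted membrane that speeds conduction. In the mature cell, genes for structural myelin proteins are transcribed at high levels under transcription factors that include SOX10 and OLIG1. Because myelin genes are switched on together at differentiation, their RNAs are commonly used as a readout of oligodendrocytes in tissue. In bulk tissue such as this, fewer cells of a type and less RNA per cell cannot be told apart.

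Total counts per mouse were 6596991 to 12418112, and the mice of a group correlated at Pearson r of 0.951 to 0.981 across genes (25 pairs). No pair within a group agreed to within sampling noise, the lowest chi-square per degree of freedom being 8.33. Kdm7a, the target of the hairpin, was at 9.08 to 9.78 normalized CPM (reads scaled to a common library size) in Ctrl + Saline, 6.19 to 8.89 in Ctrl + Morphine, 4.92 to 6.07 in Kdm7a-shRNA + Saline and 3.01 to 6.28 in Kdm7a-shRNA + Morphine. The highest knockdown mouse thus lay just above the lowest Ctrl mouse. Markers of neurons in general were present in every mouse, with 12 of them summing to 2503 to 4625 normalized CPM over the 16 mice. Values here are counts scaled by library size and by trimmed mean of M-values (TMM) factors and are not divided by transcript length. They are used here to compare mice and not genes.

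Upstream sequence was available for 6 of the 9 genes, from RefSeq on GRCm38.p6, and 4 windows are shown, the 3 genes whose window held the motif described here and, without it, Cldn11, which passed with knockdown on average. Each window holds the 200 bases from 250 to 51 before an annotated start, 5′ to 3′ on the strand of the gene. The capitals mark ACAAAG or its complement CTTTGT, a core sequence of the kind bound by Sox proteins such as SOX10.
Mobp, chr9:120149492-120149691, plus strand: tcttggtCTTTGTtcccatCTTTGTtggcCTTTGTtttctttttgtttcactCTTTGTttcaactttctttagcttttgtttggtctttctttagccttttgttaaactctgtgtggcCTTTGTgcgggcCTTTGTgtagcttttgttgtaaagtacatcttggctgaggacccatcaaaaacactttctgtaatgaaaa
Cnp, chr11:100574689-100574888, plus strand: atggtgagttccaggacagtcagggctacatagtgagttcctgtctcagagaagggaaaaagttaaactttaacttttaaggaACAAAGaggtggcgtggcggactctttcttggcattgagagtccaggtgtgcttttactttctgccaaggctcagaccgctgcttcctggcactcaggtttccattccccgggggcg
Mag, chr7:30914973-30915172, minus strand: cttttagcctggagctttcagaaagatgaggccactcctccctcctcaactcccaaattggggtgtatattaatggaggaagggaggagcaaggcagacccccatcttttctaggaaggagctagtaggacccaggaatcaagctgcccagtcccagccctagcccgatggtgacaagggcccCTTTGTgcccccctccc
Cldn11, chr3:31149670-31149869, plus strand: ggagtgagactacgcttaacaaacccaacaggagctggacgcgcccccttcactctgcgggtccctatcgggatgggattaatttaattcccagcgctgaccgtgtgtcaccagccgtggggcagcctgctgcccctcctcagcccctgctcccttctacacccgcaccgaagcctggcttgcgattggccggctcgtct

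Both ACAAAG and the related ACAATG, which share their first letters, were searched on both strands of all 32851 RefSeq windows of this length. ACAAAG was present in 13.6% of the windows, ACAATG in 8.94% and at least 1 of them in 21.2%. Among the 6 genes with a window, Mobp, Cnp and Mag held ACAAAG. The Mobp window held 6 copies, all on the strand opposite to the gene. Counting matches of either motif, it was the only window of the 32851 (0.00304%) with at least 6. That cut was taken from the Mobp window itself, so its rarity is a description and no test. Cnp held 1 copy at 167 bases before its start, and the Mag window shown held 1 at 67 bases before its start. Of the other Mag starts in RefSeq, 1 had the same copy in its window and 1 had none. No match was found in the windows of Cldn11, Mog and Mal. These are matches of letters, and binding was not measured here.

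The first comparison asked whether the structural genes of myelin differed with Kdm7a knockdown. Mbp, which encodes myelin basic protein, the protein that holds the inner faces of the myelin membrane together, had the most knockdown mice above all Ctrl mice among the 9 genes. Mbp was at 10493, 8118 and 5579 normalized CPM in the Ctrl + Saline mice and at 10683, 7596, 7531 and 5642 in the Ctrl + Morphine mice. It was at 7070.4, 15135, 14655, 7137 and 14101 in the Kdm7a-shRNA + Saline mice and at 16822, 13677, 11275 and 7258 in the Kdm7a-shRNA + Morphine mice. Of the 9 knockdown mice, 6 were above all 7 Ctrl mice, and the remaining ones, replicates 1 and 4 of Kdm7a-shRNA + Saline and replicate 4 of Kdm7a-shRNA + Morphine, lay inside the Ctrl range. The log2 fold change of Mbp was 0.53 ± 0.304 (SE) with knockdown under saline and 0.64 ± 0.291 under morphine (adjusted p = 0.233 and 0.175, edgeR's quasi-likelihood test). Averaged over both treatments it was 0.58 ± 0.211, a fold of 1.4988 (adjusted p = 0.0467), which fell just short of the 1.5-fold that a call required besides an adjusted p under 0.05.

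Cldn11 encodes claudin-11, the tight junction protein of myelin, and lies on chromosome 3 (31149920 to 31164324, plus strand, GRCm38). It was at 148, 126 and 90.6 normalized CPM in Ctrl + Saline and at 132, 89.5, 118 and 74.9 in Ctrl + Morphine. In Kdm7a-shRNA + Saline it was at 85.4, 229.7, 238, 123 and 258, and in Kdm7a-shRNA + Morphine at 213, 195, 143 and 112. Of the knockdown mice, 5 were above every Ctrl mouse, and the lowest 3 were the same replicates as for Mbp. The log2 fold change was 0.62 ± 0.314 (SE) under saline (adjusted p = 0.169, edgeR's quasi-likelihood test) and 0.68 ± 0.300 under morphine (adjusted p = 0.163). Averaged over treatments, Cldn11 rose 1.57-fold (log2 0.65 ± 0.217, adjusted p = 0.0326, edgeR's quasi-likelihood test). This call was lost when any 1 of 9 mice was left out, namely replicates 2 and 3 of Ctrl + Saline, 2 and 4 of Ctrl + Morphine, 2, 3 and 5 of Kdm7a-shRNA + Saline, or 1 and 2 of Kdm7a-shRNA + Morphine, with log2 fold changes of 0.56 to 0.67 and adjusted p of 0.0568 to 0.0999. It was also lost with library size as the only scaling (0.53, adjusted p = 0.0672) and with known genes only (0.59, adjusted p = 0.0628). Without replicate 1 of Kdm7a-shRNA + Saline, the saline comparison of Cldn11 passed instead (log2 0.81, adjusted p = 0.0477).

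Cnp encodes the phosphodiesterase of non-compact myelin, CNPase, on chromosome 11 (100574904 to 100591729, plus strand, GRCm38). It was at 362, 301 and 222 normalized CPM in Ctrl + Saline, and at 269, 609, 554, 282 and 556 in Kdm7a-shRNA + Saline. In Ctrl + Morphine it was at 431, 279, 284 and 237, and in Kdm7a-shRNA + Morphine at 405, 440.3, 373 and 239.8. Under saline, replicates 2, 3 and 5 of the knockdown group were above all Ctrl + Saline mice and replicates 1 and 4 were within their range, whereas under morphine the groups overlapped over most of their range. The log2 fold change was 0.62 ± 0.282 (SE) under saline (adjusted p = 0.126, edgeR's quasi-likelihood test), 0.24 ± 0.268 under morphine (adjusted p = 0.615) and 0.43 ± 0.194 on average (adjusted p = 0.107). Dnajc7, on the opposite strand, overlaps Cnp and had 24600 counts in all against 51762 for Cnp. Whether reads were counted by strand is not given in the sources used here, so Cnp values may hold reads of Dnajc7.

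Mog encodes myelin oligodendrocyte glycoprotein, found on the outermost layer of the sheath, on chromosome 17 (37010743 to 37023398, minus strand, GRCm38). It was at 259, 225 and 198 normalized CPM in Ctrl + Saline, 287, 178, 223 and 159 in Ctrl + Morphine, 133, 305, 277, 216 and 314 in Kdm7a-shRNA + Saline, and 389.7, 341, 221 and 188 in Kdm7a-shRNA + Morphine. The lowest Mog value of all 16 mice was in a knockdown mouse, and the groups overlapped under both treatments. The knockdown log2 fold change was 0.13 ± 0.267 (SE) under saline (adjusted p = 0.768, edgeR's quasi-likelihood test), the smallest of the 9 genes there, and 0.43 ± 0.258 under morphine (adjusted p = 0.320). With library size as the only scaling the saline value was at -0.00068, on the other side of 0.

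The other structural genes gave differences within the spread between mice. Mag, which encodes a glycoprotein of the membrane that faces the axon, spanned 74.0 to 205 normalized CPM in the Ctrl mice and 87.6 to 259.8 in the knockdown mice, with log2 fold changes of 0.55 ± 0.343 (SE) under saline and 0.21 ± 0.326 under morphine. Mobp, which encodes a small basic protein of compact myelin, spanned 283 to 604 and 294 to 796, with 0.34 ± 0.316 and 0.35 ± 0.303. Mal, which encodes a proteolipid of lipid rafts, spanned 32.2 to 69.2 and 38.6 to 101, with 0.28 ± 0.291 and 0.34 ± 0.281. For these 3 genes, adjusted p was 0.274, 0.468 and 0.534 under saline and 0.729, 0.514 and 0.481 under morphine (edgeR's quasi-likelihood test).

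**Figure D1:**
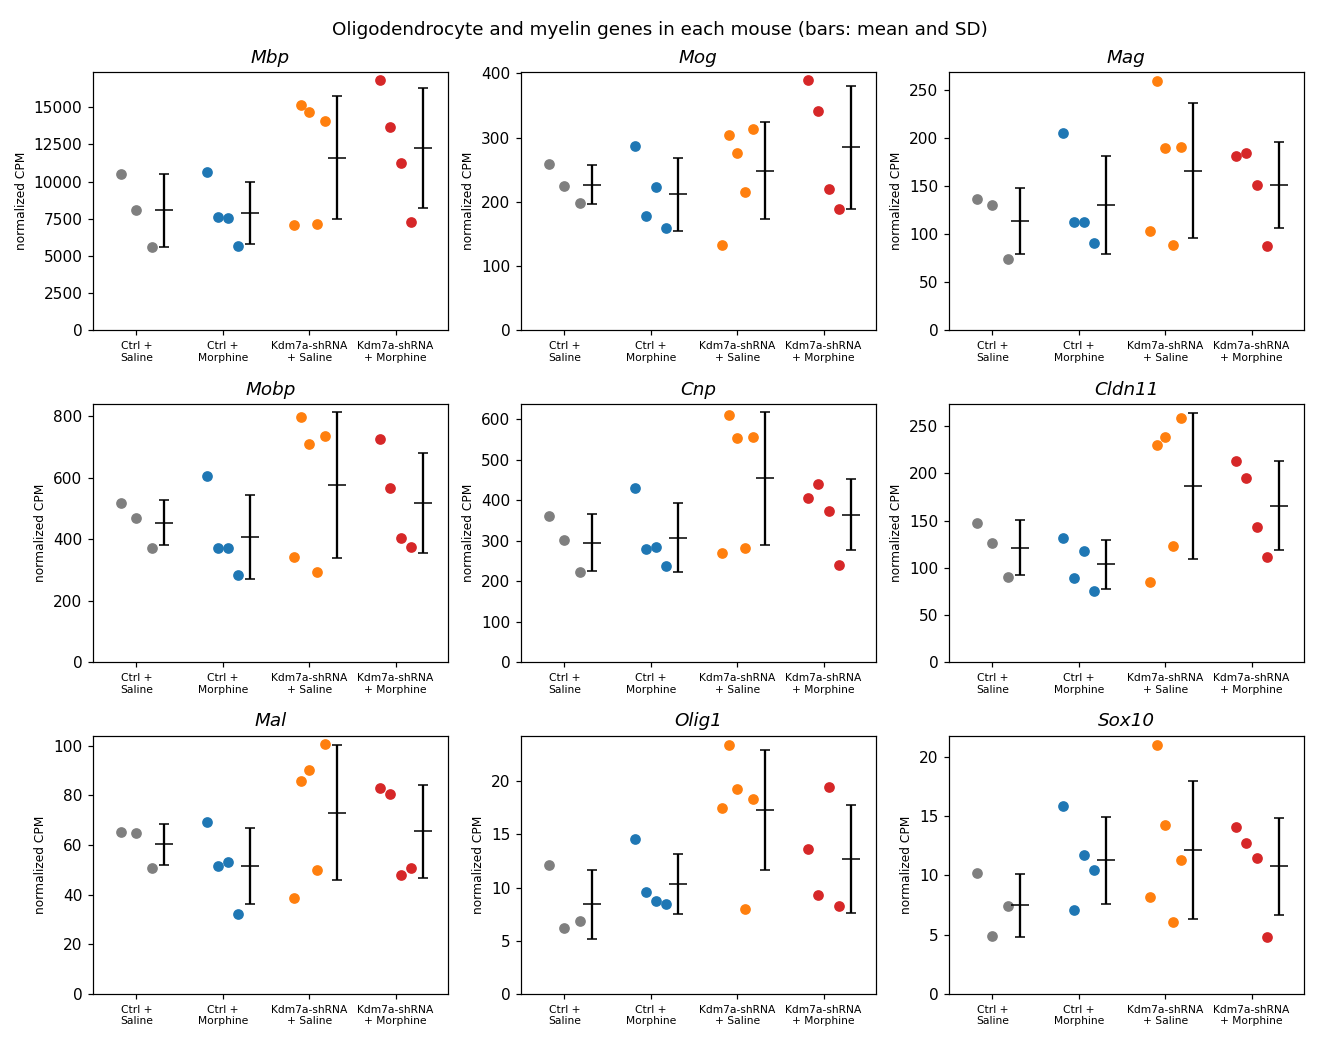
Normalized CPM of each of the 9 genes (vertical axis, from 0) in each of the 16 mice (points), by group along the horizontal axis, with the mean and SD of the group as a bar beside the points. In the Kdm7a-shRNA + Saline group the Mbp points sat at 7070.4 and 7137 or between 14101 and 15135, and no gene had groups that separated without overlap.

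Of the transcription factors, Olig1 was the gene that passed under saline. Olig1, on chromosome 16 (91269772 to 91271933, plus strand, GRCm38), encodes a basic helix-loop-helix factor needed for the maturation of oligodendrocytes and is also made in their precursors. It was at 12.2, 6.25 and 6.89 normalized CPM in Ctrl + Saline and at 17.5, 23.4, 19.3, 7.99 and 18.3 in Kdm7a-shRNA + Saline. All but replicate 4 of the knockdown group were above all Ctrl + Saline mice. Olig1 rose 2.06-fold with knockdown under saline (log2 1.04 ± 0.340 SE, 95% confidence interval 0.33 to 1.76, adjusted p = 0.0380, edgeR's quasi-likelihood test). In Ctrl + Morphine it was at 14.6, 9.60, 8.76 and 8.45, and in Kdm7a-shRNA + Morphine at 13.6, 9.35, 19.5 and 8.32, groups that overlapped (log2 0.30 ± 0.317, adjusted p = 0.594). Averaged over treatments Olig1 rose 1.60-fold (log2 0.67 ± 0.231, adjusted p = 0.0375, edgeR's quasi-likelihood test), an average that takes in the same saline mice.

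Both calls on Olig1 rested on few mice and few reads, 52 to 227 counts per mouse, with a counting error of 13.9% at the lowest count (counting error only, since the reads carry no molecular identifiers). The saline call was lost without any 1 of replicates 2 and 3 of Ctrl + Saline or replicates 1, 2, 3 and 5 of Kdm7a-shRNA + Saline (log2 0.86 to 1.04, adjusted p 0.0562 to 0.161), and with library size as the only scaling (0.91, adjusted p = 0.0531), at least 10 counts in every mouse (1.00, adjusted p = 0.0510) or known genes only (0.96, adjusted p = 0.0650). The averaged call was lost without any 1 of replicates 2 and 3 of Ctrl + Saline, 2, 3 and 4 of Ctrl + Morphine, 2, 3 and 5 of Kdm7a-shRNA + Saline, or 1 and 3 of Kdm7a-shRNA + Morphine (log2 0.52 to 0.66, adjusted p 0.0559 to 0.103), and under the same settings (0.55, 0.65 and 0.61, adjusted p = 0.0703, 0.0524 and 0.0675).

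Sox10, on chromosome 15 (79154908 to 79165240, minus strand, GRCm38), encodes a factor that marks the whole oligodendrocyte lineage and drives myelin genes. It was at 10.2, 4.88 and 7.42 normalized CPM in Ctrl + Saline, 15.9, 7.04, 11.7 and 10.5 in Ctrl + Morphine, 8.16, 21.0, 14.2, 6.07 and 11.3 in Kdm7a-shRNA + Saline, and 14.1, 12.7, 11.4 and 4.83 in Kdm7a-shRNA + Morphine. The highest and the lowest of all 16 mice were both knockdown mice, and all groups overlapped. The log2 fold change with knockdown was 0.71 ± 0.391 (SE) under saline (adjusted p = 0.213, edgeR's quasi-likelihood test) and -0.07 ± 0.364 under morphine (adjusted p = 0.933), from 36 to 182 counts per mouse. The value under morphine turned positive without replicate 1 of Ctrl + Morphine (0.15) or without replicate 4 of Kdm7a-shRNA + Morphine (0.17).

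Counted over the list, 1 of the 9 genes passed with knockdown under saline, where 16.7% of all tested entries passed, 7.43% as higher and 9.31% as lower. None passed under morphine by edgeR's quasi-likelihood test, where 7.69% of all entries passed, 2.86% as higher and 4.83% as lower, and none by DESeq2 or the exact test of edgeR. Under morphine 2 of the 9 had an unadjusted p under 0.05, as did 25.5% of all entries. On average over treatments 2 of 9 passed, both higher, where 17.6% of all entries passed, 7.68% as higher and 9.93% as lower. Of all calls, 44.4% under saline, 37.2% under morphine and 43.6% on average were higher, and with library size as the only scaling, which moved the median of all entries by about -0.1 on the log2 scale, 29.2%, 24% and 30.6% were. The number of calls over all entries rested on single mice, falling under saline from 3151 to 2083 and 1424 without replicate 2 or 3 of Ctrl + Saline, and under morphine from 1448 to 933, 750 and 578 without replicate 1, 3 or 4 of Ctrl + Morphine and to 913 and 568 without replicate 1 or 3 of Kdm7a-shRNA + Morphine. It also rose, at most to 3730 under saline without replicate 4 of Kdm7a-shRNA + Saline. Under morphine it rose at most to 2066, without replicate 4 of Kdm7a-shRNA + Morphine. The counts of the 9 genes that passed, small and near the background, set no list of 9 apart. The fitted log2 fold changes lay above 0 for 9 of 9 genes under saline (median 0.55) and 8 of 9 under morphine (median 0.34), against a median near 0 over all tested entries (0.01 and -0.0045). As the 9 genes move together from mouse to mouse, these signs are not 9 separate observations.

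In the order of group means, both Kdm7a-shRNA groups were above both Ctrl groups for every gene except Sox10, for which Ctrl + Morphine was above Kdm7a-shRNA + Morphine. For Mbp and Mog the highest mean was in Kdm7a-shRNA + Morphine (12258 ± 4034 and 285 ± 96.0 normalized CPM, SD, n = 4), and for the other 7 genes it was in Kdm7a-shRNA + Saline. The lowest mean was in Ctrl + Morphine for Mbp, Mog, Mobp, Cldn11 and Mal and in Ctrl + Saline for Mag, Cnp, Olig1 and Sox10. Neighbours in this order overlapped for all 9 genes. How often this order or such overlap occurs over all tested entries was not counted, so neither sets the 9 genes apart.

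The second comparison asked whether morphine changed these genes. Under the Ctrl virus the fitted log2 differences, Ctrl + Morphine against Ctrl + Saline, ran from -0.23 for Cldn11 to 0.60 ± 0.406 (SE) for Sox10, and under Kdm7a-shRNA from -0.43 ± 0.297 for Olig1 to 0.20 for Mog. None of the 9 genes passed in either by edgeR's quasi-likelihood test, and none had an unadjusted p under 0.05, where 0% and 0.00531% of all tested entries were called and 11.7% and 7.02% had an unadjusted p under 0.05. By DESeq2 and the exact test of edgeR none of the 9 passed either, where 185 and 165 entries were called under Ctrl and 20 and 15 under Kdm7a-shRNA. Over all entries, leaving out replicate 1 of Ctrl + Saline gave 230 calls under Ctrl, and replicate 2 of Kdm7a-shRNA + Morphine 10, against 0 with every mouse. The 95% confidence intervals ran from -0.91 to 1.46 over the 9 genes under Ctrl and from -1.06 to 0.71 under Kdm7a-shRNA. In both comparisons the interval of every gene passed 1.5-fold in at least 1 direction. A change of that size was thus not excluded for any of the 9 genes at this group size. Averaged over viruses, the differences were -0.20 to 0.22, again with none passed and none at an unadjusted p under 0.05, where 0% of entries were called (7 entries by DESeq2). The comparisons within a virus share the Ctrl + Saline or Kdm7a-shRNA + Saline mice with the comparisons of knockdown.

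Whether knockdown acted differently under the treatments was tested as an interaction. Its log2 values ran from -0.77 ± 0.533 (SE) for Sox10 and -0.74 ± 0.461 for Olig1 to 0.30 ± 0.370 for Mog. None passed by edgeR's quasi-likelihood test (adjusted p 0.610 to 0.999), and none had an unadjusted p under 0.05, where 0.085% of all entries passed (16 entries), 0.0106% as higher and 0.0744% as lower, and 10.7% had an unadjusted p under 0.05. None passed by DESeq2, which called 217 entries. With each mouse left out in turn, 0 to 266 entries were called, the most without replicate 1 of Ctrl + Saline. The Olig1 call under saline was therefore not shown to be particular to saline.

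**Figure D2:**
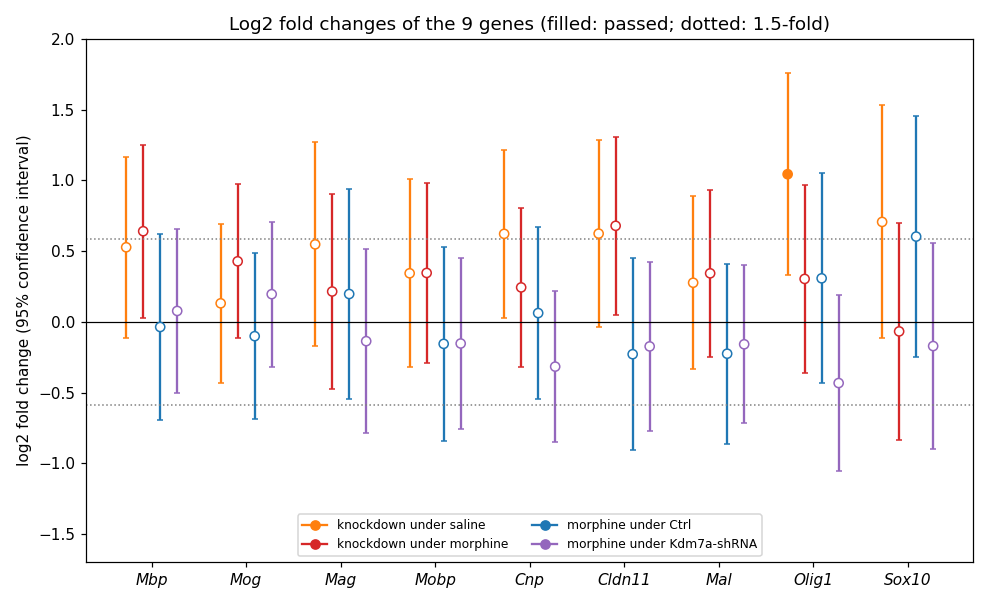
Log2 fold change (vertical axis) with its 95% confidence interval (bars) for each of the 9 genes (horizontal axis) in the comparisons of knockdown under saline, knockdown under morphine, morphine under Ctrl and morphine under Kdm7a-shRNA, with filled points for those that passed and dotted lines at 1.5-fold. The single filled point is Olig1 with knockdown under saline, at 1.04, and the knockdown points lie above 0 except Sox10 under morphine, at -0.07.

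The 9 genes varied widely within groups and did so together. The within-group SD of log2 CPM was 0.44 (Mog) to 0.61 (Sox10), against a median of 0.33 over all 18826 tested entries and of 0.23 over the 8388 entries at or above the mean level of the lowest of the 9. The share of a gene's variance that lay between groups was 12.7% (Mog) to 40.1% (Olig1), against a median of 35.6% over all entries. For Mog, Mag, Mobp, Mal and Sox10 it was 12.7% to 15.4%, so that most of their variance was among mice of the same group.

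Replicate 1 of Ctrl + Saline and replicate 1 of Ctrl + Morphine were the highest of their group for 9 of 9 genes. In Kdm7a-shRNA + Saline, replicates 1 and 4 were below the group median for 9 of 9 genes, and replicates 2, 3 and 5 for none. Replicate 4 of Kdm7a-shRNA + Morphine was the lowest of its group for 8 of 9 genes, all but Mal. Total counts did not follow this pattern, with Pearson r of 0.06 and Spearman rho of 0.16 to the mean of the 9 genes over the 16 mice.

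After each gene was centred on its group means, the 21 pairs among the 7 myelin genes correlated at Pearson r of 0.82 to 0.97 over the 16 mice (median 0.93). Mag and Cnp were the closest pair (0.97) and Mog and Mag the least close (0.82). Pairs of a myelin gene with Olig1 or Sox10 were at 0.33 to 0.80 (14 pairs, median 0.68), lowest for Olig1 with Mog (0.33) and Mal (0.35), and Olig1 and Sox10 correlated with each other at 0.74. Replicate 3 of Kdm7a-shRNA + Morphine was the highest of its group for Olig1 and lowest for Mal. All of these values come from the same 16 libraries, so the correlations share whatever varied among the libraries and are given as a description.

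**Figure D3:**
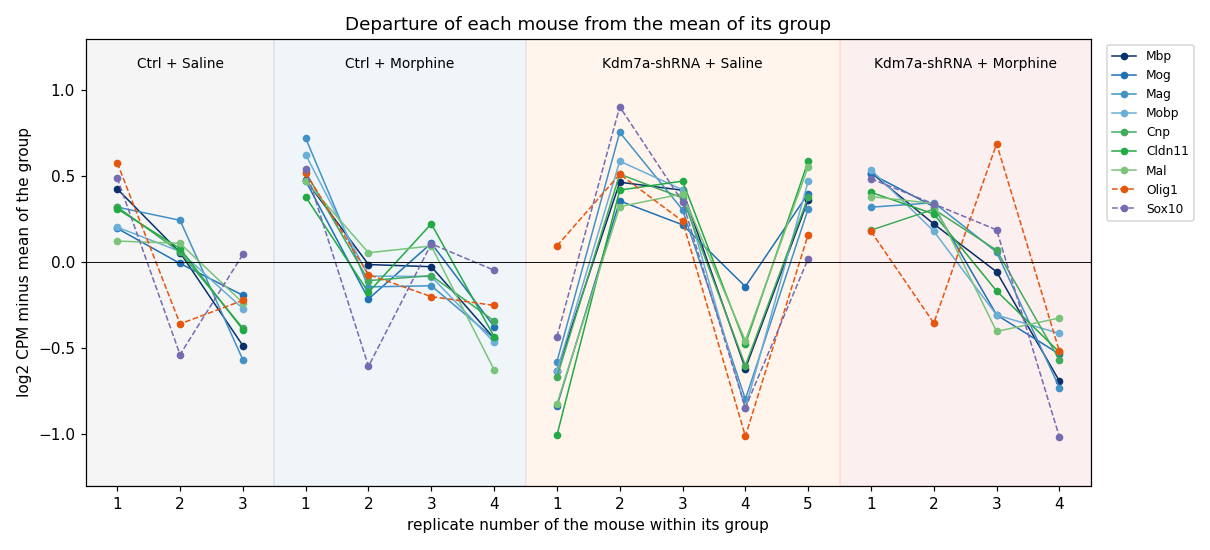
Log2 CPM of each of the 9 genes minus the mean of its group (vertical axis) in the 16 mice (horizontal axis, replicate number within each shaded group), with solid lines for the 7 myelin genes and dashed lines for Olig1 and Sox10. Lines join the points of a gene only to guide the eye, and the myelin genes lie close together in each mouse, with replicates 1 and 4 of Kdm7a-shRNA + Saline below the other replicates.

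The tested genes outside the list whose pattern was most like the mean of the 9 genes, by Pearson r over the 16 mice after centring on groups, were Bcas1 (0.961), Sept4 (0.960), Otud7b (0.959), Phlpp1 (0.954), Gjb1 (0.953), Car2 (0.946), Carhsp1 (0.938) and Trf (0.938). Bcas1 marks oligodendrocytes that are forming or keeping myelin, Gjb1 encodes a connexin of myelin gap junctions, Car2 a carbonic anhydrase and Trf transferrin, which carries iron. Carhsp1 was the one of them that passed with knockdown on average (log2 0.65 ± 0.176 SE, adjusted p = 0.0103, edgeR's quasi-likelihood test). Its level was 18.8 normalized CPM on average.

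Other oligodendrocyte genes, in lists made for this work, correlated with the mean of the 9 genes over the 16 mice within groups at Pearson r of 0.959 for 21 other myelin genes, 0.968 for 27 other genes of mature oligodendrocytes, 0.71 for myelin lipid synthesis, 0.68 for regulators of the lineage and 0.74 for precursors. Of the 21 myelin genes tested, 2 rose and 1 fell with knockdown under saline, 4 rose under morphine and 4 rose on average, with medians of 0.14, 0.36 and 0.25 on the log2 scale, against the same shares of all entries passed as higher (7.43%, 2.86% and 7.68%). Cd9, which encodes a tetraspanin, rose most on average (log2 1.59 ± 0.276 SE, adjusted p = 0.000494, edgeR's quasi-likelihood test), followed by Pmp22 (1.17 ± 0.231, adjusted p = 0.00119), Cd82 (0.83 ± 0.213, adjusted p = 0.00760) and Opalin (0.63 ± 0.226, adjusted p = 0.0445). Gpm6b fell under saline by 0.82 on the log2 scale (adjusted p = 0.00678), with a value of 0.44 under morphine (adjusted p = 0.142). Of these, Opalin is largely restricted to oligodendrocytes, whereas Cd9, Cd82 and Pmp22 are also expressed by other cells of the brain. Plekhb1, which was well counted, was at 0.27 ± 0.151 on average (adjusted p = 0.199, edgeR's quasi-likelihood test).

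Among the 27 genes of mature oligodendrocytes, 2 rose under saline, 1 under morphine and 5 on average, and none fell (medians 0.30, 0.35 and 0.31), where 7.43%, 2.86% and 7.68% of all tested entries passed as higher. On average over treatments the genes that rose were Fth1, the heavy chain of ferritin (log2 1.31 ± 0.255 SE, adjusted p = 0.00109, edgeR's quasi-likelihood test), Ppp1r14a (1.23 ± 0.369, adjusted p = 0.0191), Evi2a (0.83 ± 0.260, adjusted p = 0.0237), Il33, a nuclear cytokine (0.78 ± 0.231, adjusted p = 0.0171), and Gsn, the actin-severing gelsolin (0.67 ± 0.214, adjusted p = 0.0261). Fth1 is expressed in microglia as well. Car2 was at 0.18 ± 0.163 and Qdpr at 0.21 ± 0.139 (adjusted p = 0.443 and 0.286).

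Of 13 genes of myelin lipid synthesis, Smpd3, a neutral sphingomyelinase, and Sptlc2, a subunit of serine palmitoyltransferase, rose under saline (log2 1.14 and 0.78, adjusted p = 0.0142 and 0.0185, edgeR's quasi-likelihood test), none passed under morphine, and Smpd3 passed on average (0.71 ± 0.201 SE, adjusted p = 0.0135). Of all tested entries, 7.43% passed as higher under saline, 2.86% under morphine and 7.68% on average, and 9.93% passed as lower on average. The genes of cholesterol synthesis Fdft1 and Hmgcs1 were at -0.10 ± 0.134 and 0.04 ± 0.150 on average (adjusted p = 0.624 and 0.888). Of 18 regulators of the lineage, Nkx6-2, a homeobox factor of mature oligodendrocytes, rose under saline (1.40 ± 0.420, adjusted p = 0.0261) and on average (0.96 ± 0.283, adjusted p = 0.0173), from a mean of 2.88 normalized CPM. Lingo1, an inhibitor of differentiation that neurons also express, fell on average by 0.64 ± 0.202 on the log2 scale (adjusted p = 0.0247). Id2 was at -0.43 under saline (adjusted p = 0.0414, under 1.5-fold) and -0.13 ± 0.101 on average, and Zeb2 at -0.10 ± 0.125 on average (adjusted p = 0.359 and 0.577). Of 13 genes of oligodendrocyte precursors, Vcan rose under saline (0.82 ± 0.276, adjusted p = 0.0426) and Itpr2 on average (0.72 ± 0.237, adjusted p = 0.0301). As higher, 1 of 18 regulators and 1 of 13 precursors passed under saline and on average, near the shares of all entries. Pdgfra, the defining receptor of precursors, was at 0.11 ± 0.160 on average (adjusted p = 0.648), and Ptprz1 at 0.39 ± 0.129 (adjusted p = 0.0307, under 1.5-fold).

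Markers of other cell types moved in the same comparisons. Of 12 microglial markers, 11 rose under saline, 8 under morphine and 11 on average, with medians of 1.48, 1.41 and 1.37 on the log2 scale, each above the medians of the 9 genes. Over all tested entries, 7.43%, 2.86% and 7.68% passed as higher. Summed over the list, microglial markers were at 1391 to 2016 normalized CPM in Ctrl + Saline, 821 to 1718 in Ctrl + Morphine, 2966 to 8988 in Kdm7a-shRNA + Saline and 1984 to 8773 in Kdm7a-shRNA + Morphine, and none of the 12 was at 0 in every mouse of a group. The largest average changes were those of Trem2 (2.17 ± 0.337 SE), Tyrobp (2.03 ± 0.310), C1qb (1.77 ± 0.315) and C1qc (1.72 ± 0.316), with adjusted p of 0.000198, 0.000169, 0.000597 and 0.000742 (edgeR's quasi-likelihood test), while Tmem119 did not pass (0.70 ± 0.275, adjusted p = 0.0653). The mean of the microglial list correlated with that of the 9 genes at Pearson r of 0.52 over the 16 mice within groups. Its part in the differences of Olig1, Cldn11, Cd9 and Fth1 was not tested.

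Of 11 astrocyte markers, 4 rose under saline, 1 under morphine and 5 on average, Gfap, Aqp4, Aldh1l1, Clu and Mlc1, with log2 values of 0.77 to 1.17 on average, and of 11 endothelial and mural markers 3, 2 and 3 rose (Cldn5 and Flt1 under saline, Pecam1 under both treatments, Itm2a under morphine, and Cldn5, Pecam1 and Acta2 on average). The shares of all tested entries in these comparisons were 7.43%, 2.86% and 7.68% as higher and 9.31%, 4.83% and 9.93% as lower. Summed astrocyte markers were at 8849 to 13074 normalized CPM in the Ctrl mice and 10522 to 14424 in the knockdown mice, and summed endothelial markers at 253 to 317 and 312 to 550. Of 12 neuronal markers, Gad2, an enzyme of GABA synthesis, fell under saline and on average (log2 fell by 0.63 and 0.60), and 10 of the 12 had values under 0 in the saline comparison. The mean of the neuronal list correlated with that of the 9 genes at Pearson r of -0.59 within groups, that of the astrocyte list at 0.56, of the endothelial list at 0.58, of the striatal list at 0.55 and of the choroid plexus and ependyma list at 0.62. None of the 8 striatal markers passed with knockdown by edgeR's quasi-likelihood test. The best counted markers that did not pass were Aldoc and Slc1a2 of astrocytes (-0.04 and -0.08 on average), Ly6c1 and Slco1a4 of endothelium (0.39 and 0.31), Syt1 and Camk2a of neurons (-0.11 and -0.47), and Ppp1r1b and Pde10a of striatum (-0.04 and -0.06). Of 6 markers of choroid plexus and ependyma, 4 were tested, and Foxj1 rose under saline (1.56) and Foxj1 and Folr1 on average (1.52 and 2.37), with Ccdc153 and Ttr at 0.94 and -0.14. Folr1 was near the floor, with 0 to 21 counts per mouse and a mean of 0.025 normalized CPM in Ctrl + Morphine. Its average value had an SE of 0.848 (adjusted p = 0.0456, edgeR's quasi-likelihood test). Of 5 markers of Schwann cells, the myelinating cells of peripheral nerve, only Egr2, which cortical neurons also express, passed the filter, and it fell under saline by 1.06 on the log2 scale and on average by 0.64. The part of these cell types in the values of the 9 genes was not tested.

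**Figure D4:**
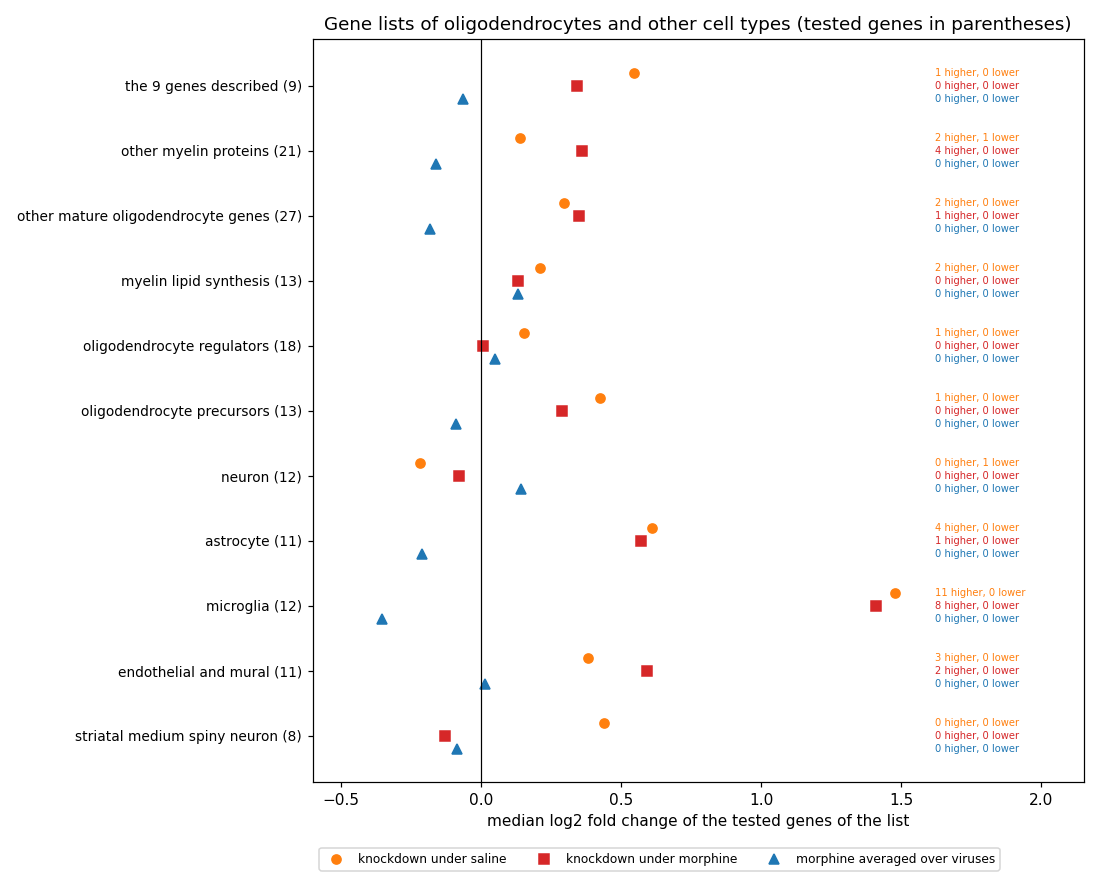
Median log2 fold change (horizontal axis) of the tested genes of each list (vertical axis, number of tested genes in parentheses) for knockdown under saline, knockdown under morphine and morphine averaged over viruses, with the number of genes that passed as higher or lower at the right. The 9 genes are in the top line, at 0.55 and 0.34 with knockdown, and the microglial list is at 1.48 and 1.41.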

How the data were processed

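Per the labels and the methods, the authors sequenced nanopore cDNA-PCR libraries of mPFC RNA, removed short, low-quality and ribosomal reads, aligned the rest to mm10 with minimap2, built transcripts and counted reads per gene, and used edgeR 3.8.6. The deposited table gives raw counts for each of 16 samples and, beside them, CPM that the authors made by scaling each column to a common total. The counts were tested and the deposited CPM was used only to check the counts. The labels number the samples without naming animals, each is called a mouse here, and p-values measure the spread between these samples.

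Groups came from the sample titles. Entries were filtered with filterByExpr (18826 of 26625 kept), scaled by TMM and fitted in 1 model of the 4 groups by edgeR 4.0.16 (quasi-likelihood test, R 4.3.3), with Benjamini-Hochberg adjustment over all tested entries. A gene passed when it differed 1.5-fold or more with an adjusted p under 0.05, and "rose" and "fell" are used of such genes. Log2 CPM used a prior count of 2. On simulated counts for knockdown under saline (18826 genes), the quasi-likelihood test recovered 63 of 100 genes changed 2-fold and 84 of 100 changed 4-fold, with 11 unchanged genes called. The changed genes were drawn from all entries and the rest were left unchanged, unlike the data, where 16.7% passed. These rates therefore do not give the power for the 9 genes. Same-numbered mice of Ctrl + Saline and Ctrl + Morphine deviated together in each of 3 pairs (r 0.11 to 0.21), and for no other groups did every pair. Mice with different numbers were not compared, so these values do not show that the replicate numbers pair animals. The main fit used no block. DESeq2 1.42.0 and the exact test of edgeR were alternatives. The 9 genes and the other gene lists were chosen with earlier results of these data known. The ACAAAG search and the windows shown were chosen after the values were seen. In each list, genes that passed with knockdown are named (the 4 with the smallest adjusted p where more than 8 passed) and the 2 best counted that did not. A gene that this rule names is not reported here. Counts per mouse were 6596991 to 12418112, and their number of reads and of mice limits the precision. Gene positions are from GENCODE on GRCm38, the build also called mm10. Septin4 is listed in the table under a date-like name and was matched by gene ID as Sept4.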

Additional observations from a re-analysis of the deposited data

How the results depend on the processing

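With library size as the only scaling and with known genes only, none of the 9 genes passed with knockdown under saline (0 against 1) or on average (0 against 2). Over all entries, 3309 and 3444 of 18826 passed with library size only, and 1419 and 1456 of 14435 with known genes only. With at least 10 counts in every mouse, 0 passed under saline and 1, Cldn11, on average, where 1852 and 1525 of 13547 entries passed. With each mouse left out in turn, 0 to 1 gene passed under saline, 0 to 3 on average and 0 in the other comparisons. Over all entries these fits called 1424 to 3730 under saline and 2753 to 3738 on average. The fitted change of Mog under saline turned to -0.00068 with library size as the only scaling, and that of Sox10 under morphine turned to 0.15 without replicate 1 of Ctrl + Morphine and 0.17 without replicate 4 of Kdm7a-shRNA + Morphine (-0.24 to 0.17 with each mouse left out). The cause was not tested. In the averaged comparison Mbp passed besides Cldn11 and Olig1 (3 genes) with RLE size factors, with no filter, by DESeq2, by adjusted p alone and with the replicate block (0.63, adjusted p = 0.0145), and also without any 1 of replicate 1 of Ctrl + Saline, replicate 1 of Ctrl + Morphine, replicates 1 and 4 of Kdm7a-shRNA + Saline or replicate 4 of Kdm7a-shRNA + Morphine (0.65 to 0.69). Of all 18826 entries, 3324 passed with RLE size factors, 3361 by DESeq2, 5190 by adjusted p alone and 3345 with the block. With no filter 4080 of 26588 passed.

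Whether the replicate numbers pair animals is not known. Same-numbered mice of Ctrl + Saline and Ctrl + Morphine deviated together at r above 0.1 in 3 of 3 pairs (0.11 to 0.21). In the pairs of groups that the knockdown comparisons use 0 to 1 of 3 or 4 pairs did, and between the Kdm7a-shRNA groups 2 of 4 did (-0.10 to 0.39). With the replicate block on these Ctrl groups alone, added after the data were seen, 0 of the 9 genes passed with morphine (Sox10 0.62, adjusted p = 0.216), as with the block on all mice, so that it changed no call there. With the replicate block on all mice the counts of the 9 genes that passed were 1 under saline, 0 under morphine and 3 on average, where 3198, 1456 and 3345 of all 18826 entries passed. Of 684 alternative values of the 27 knockdown changes, 637 kept direction and call, 33 lost a call, 11 gained one and 3 changed sign. Only 3 of the 27 had a call to lose, and all 33 losses fell on them. With each of 16 mice left out, Olig1 under saline lost its call 6 times. On average over treatments, Cldn11 lost it 9 times and Olig1 10 times. With every mouse kept, they lost it in 3 of 10, 2 of 8 and 3 of 8 settings. Over all entries, calls under saline fell from 3151 to 1852 with at least 10 counts in every mouse and 1419 with known genes only, those under morphine from 1448 to 697 and 446, and to 685 with the compared groups alone, and those on average from 3316 to 1525 and 1456, with 5190 by adjusted p alone. The exact test and the fit of the compared groups alone could not be applied to averages or the interaction. Counts were lowest for Olig1 and Sox10. The within-group SD of Olig1 (0.51) was close to that of the better counted Mobp and Cldn11 (0.52 each), whereas that of Sox10 (0.61) was the highest of the 9 genes. These SDs hold both the spread between mice and counting error, and the part of each was not tested. With 3 to 5 mice per group, they limited the precision for all 9 genes.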
